A study of Mus musculus with 9 samples.

Results

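The regions described here are stretches of mouse intergenic DNA, lying more than 5 kb and up to 50 kb from the nearest annotated transcription start site (TSS), in which the histone mark H3K27me3 was higher in M-cell cultures than in stem-cell cultures. They were taken from the list of RANKL-higher regions by 3 criteria: a position on chromosomes 1 to 19, an intergenic annotation, and that distance. This left 7684 of the 35798 RANKL-higher regions, and of 49405 regions in all when the 13607 regions higher in stem-cell culture are counted too. The deposited fold and p-value of each region had put it on the list, and the members are therefore selected on measured values, the RANKL and WENRC tags, so those are given as a description and carry no test. The tested measure is transcription, which the selection did not use.

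The samples are organoids, miniature guts grown in culture from mouse duodenum. RANKL cultures are labelled as intestinal M cells, ENRI cultures as enterocytes, the absorptive cells, and WENRC cultures as intestinal stem cells. The letters of the culture names are not spelt out in the labels, which also give no strain, genotype, sex or age. ChIP-seq of H3K27me3 comprised 1 WENRC library and 2 RANKL libraries whose reads the authors merged, so the mark has no replicate check and a difference between cultures cannot be told apart from one between single immunoprecipitations. Transcription was measured by GRO-seq, which sequences RNA from engaged polymerases, in 2 libraries of each of the 3 cultures. ENRI and WENRC libraries carry mouse numbers, but nothing says that the RANKL libraries came from separate animals, so p-values may measure technical spread. Per the file headers, the RANKL GRO-seq libraries are combined reads of a resequencing, and that batch cannot be told apart from the culture.

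H3K27me3 is written by Polycomb repressive complex 2 (PRC2) and is associated with silenced genes. It often spreads in broad domains over CpG-rich promoters of developmental regulators and into the DNA around them. RANKL is the cytokine that drives intestinal epithelial cells to become M cells, which carry antigens across the gut lining to the immune tissue beneath. Sox8 and Atoh8 are transcription factors of that lineage.

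The nearest gene of a region is the one the authors' annotation gives, and whether a region acts on it is not known. Promoters of 5 such genes are shown because the regions around them stand for the patterns described below: Six2 and Gsx1 among the silent developmental regulators with many regions, Ifnlr1 and Il22ra1 as neighbouring receptors whose transcription fell, and Sox8 as an M-cell factor whose transcription rose beside DNA with regions of both directions. The sequences are RefSeq's for GRCm38.p6, a build that differs from the mm9 coordinates of the regions. Each gives the 250 bases before the start, 5′ to 3′ on the gene's strand, with CG dinucleotides (CpG, read alike on both strands) in capitals. They lie at chr17:85688255-85688504 (Six2, minus strand), chr5:147188446-147188695 (Gsx1, plus), chr4:135686207-135686456 (Ifnlr1, plus), chr4:135727909-135728158 (Il22ra1, plus) and chr17:25570687-25570936 (Sox8, minus).
Six2: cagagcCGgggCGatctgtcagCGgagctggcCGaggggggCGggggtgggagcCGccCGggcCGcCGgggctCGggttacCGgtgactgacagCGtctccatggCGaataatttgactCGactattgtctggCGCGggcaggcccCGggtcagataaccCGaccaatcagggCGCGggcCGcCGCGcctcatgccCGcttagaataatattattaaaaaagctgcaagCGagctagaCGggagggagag
Gsx1: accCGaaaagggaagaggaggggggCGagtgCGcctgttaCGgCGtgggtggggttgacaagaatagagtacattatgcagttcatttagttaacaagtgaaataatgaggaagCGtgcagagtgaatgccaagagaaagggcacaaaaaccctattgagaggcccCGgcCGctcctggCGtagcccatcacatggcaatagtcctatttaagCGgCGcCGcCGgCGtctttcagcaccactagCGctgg
Ifnlr1: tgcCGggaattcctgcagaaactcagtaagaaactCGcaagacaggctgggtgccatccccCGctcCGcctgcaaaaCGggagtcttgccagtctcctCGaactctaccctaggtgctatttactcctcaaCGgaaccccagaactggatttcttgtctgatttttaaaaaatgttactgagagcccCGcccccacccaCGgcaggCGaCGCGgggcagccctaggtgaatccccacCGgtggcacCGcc
Il22ra1: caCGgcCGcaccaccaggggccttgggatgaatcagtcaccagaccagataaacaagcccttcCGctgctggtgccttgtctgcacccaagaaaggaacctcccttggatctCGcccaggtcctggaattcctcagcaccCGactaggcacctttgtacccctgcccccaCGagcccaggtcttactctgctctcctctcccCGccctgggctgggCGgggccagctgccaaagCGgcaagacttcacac
Sox8: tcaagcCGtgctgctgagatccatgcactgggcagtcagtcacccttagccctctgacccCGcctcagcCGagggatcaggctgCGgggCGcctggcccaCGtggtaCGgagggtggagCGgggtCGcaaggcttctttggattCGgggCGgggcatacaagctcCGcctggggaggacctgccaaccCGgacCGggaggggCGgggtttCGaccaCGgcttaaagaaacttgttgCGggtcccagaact

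These windows hold 26 CpG for Six2, 18 for Sox8, 15 for Gsx1, 14 for Ifnlr1 and 9 for Il22ra1. Over 25748 autosomal genes with a RefSeq promoter the median is 6, and 40.9% hold 10 or more. Genes transcribed enough to be tested below are higher, with a median of 15 in the 75.6% matched to a promoter. Ifnlr1 and Il22ra1 lie under that second median. The match was partial, so it is given as a description only. These 5 were picked after values were seen, and their CpG numbers stand for no gene set.

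The regions were mostly short and lightly tagged. They covered 6.04 Mb in all. The median length was 500 bp, which is also the shortest, and the longest was 13025 bp. RANKL tags, the reads counted in a region, ran from 15 to 1118 with a median of 27. A count of 27 has an exact Poisson 95% interval of 17.8 to 39.3, which covers counting error only. The same regions held a median of 9 WENRC tags after scaling to the RANKL depth of 32.7 M tags. Spread evenly over the 2638 Mb spanned by the listed features, the RANKL tags would give 6.20 per 500 bp. The 4255 regions of exactly 500 bp had a median of 22 RANKL and 7.2 WENRC tags, so the WENRC value in them sat close to that average. The 320 regions of at least 2000 bp had a median of 26.6 RANKL and 10.7 WENRC tags per 500 bp, a denser signal in both cultures.

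The deposited fold ran from 2.0 to 46.65 with a median of 2.91, and 1034 regions (13.5%) reached 4. The highest folds rested on very few WENRC tags. The only 2 regions at the floor for no WENRC tags lie near the non-coding RNA gene 4933440M02Rik in an ERV1 retrovirus-like element. They had 21 and 19 RANKL tags, at least 7.78-fold and 7.04-fold higher against a floor of 3 tags per library. Both are centred in MURVY-int, a repeat, so reads of other copies may be counted there, which was not tested. A further 147 regions rested on 1 to 3 WENRC tags. The highest of them, chr4:135265863-135266503 before the Il22ra1 start, had 23 RANKL tags against 1 WENRC tag, scaled to 0.9, a ratio of 25.55 with a counting interval of 4.15 to 1053. Others stood near the odorant receptor gene Olfr1364 (43 tags against 1.8) and near Gm4793 and the pheromone receptor gene Vmn2r104. One of the 2 Gm4793 regions and the Vmn2r104 region are centred in L1_Mus1 copies, a repeat family whose near-identical copies can share reads.

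**Figure D1:**
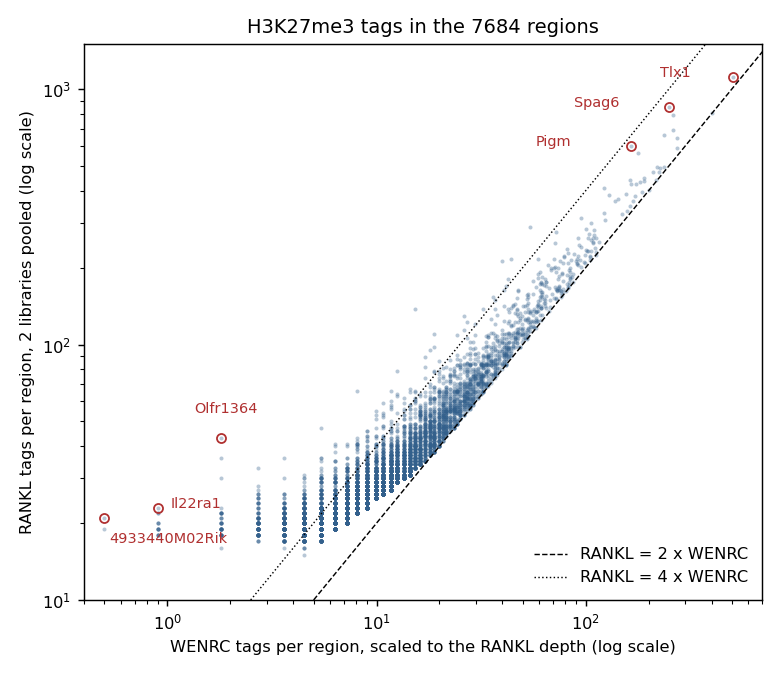
H3K27me3 tags of each of the 7684 regions in the pooled RANKL libraries (y axis) and the WENRC library scaled to the same depth (x axis), both on log scales. The dashed and dotted lines mark folds of 2 and 4. The regions with most tags lie between those lines, and the highest folds lie at the left edge, where WENRC held 0 to 2 tags.

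At the other end, the regions with most tags held many tags in both cultures. The region with most tags spans 13.0 kb at chr19:45230504-45243529, downstream of Tlx1, a homeobox factor of spleen development. It held 1118 RANKL tags against 504.1 in WENRC, a fold of 2.22. Spag6, a sperm flagellum gene, followed with 849 against 251.2 at chr2:18608605-18619638. Tfap2a, an ectodermal transcription factor, had 805 against 401.5 upstream of its start. Hoxb13, the last gene of its Hox cluster, had 788 against 262.9 at chr11:96026328-96035346. The region upstream of Cbx8, which encodes a Polycomb repressive complex 1 subunit, held 691 tags against 262.0. Msx1, a homeobox factor of limb and tooth, had 661 against 235.9, and 2 regions upstream of Pax2, a kidney factor, had 642 against 273.7 and 561 against 178.2. A region downstream of Pigm, a mannosyltransferase of GPI anchor synthesis, had 597 against 164.7, and one downstream of the non-coding RNA gene 4933429K18Rik had 586 against 273.7. All 10 regions with most tags had folds between 2.0 and 3.62, below the fold of 4 that 13.5% of all the regions reached.

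The region nearest to each side of each bound of the distance window is given as an example and stands for no larger set. Over all regions, the median was 27 RANKL tags inside the window and 25 for RANKL-higher intergenic regions beyond 50 kb. At 5003 bp from its gene, a region near Gys2 had 22 tags against 5.4 and was kept. At 4998 bp, one near Arhgap25 had 169 against 66.6 and was not. At the far bound, 24 against 8.1 near 1700123K08Rik at 49994 bp was kept, and 53 against 24.3 near Foxo6 at 50014 bp was not.

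The regions thinned out with distance from the TSS. There were 327 regions per kb of distance from 5 to 10 kb, 232.8 from 10 to 20 kb, 162.6 from 20 to 30 kb, 122.9 from 30 to 40 kb and 86.6 from 40 to 50 kb. The median distance was 19.4 kb. How much intergenic DNA lies at each distance was not measured, and its part in the thinning was not tested. Upstream of the TSS lay 5274 regions (68.6%), a share shaped by the rule, because DNA just downstream of a start is usually inside the gene and not intergenic. WENRC-higher intergenic regions at the same distances were 71.7% upstream.

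Many of the regions came in groups. Joining regions no more than 5 kb apart gave 4896 stretches, and 56.1% of the regions were in a stretch with at least 1 other. For the 3261 WENRC-higher intergenic regions at the same distances this was 22.8%, in a list that is sparser. There were 160 stretches of 5 or more regions, against 8. A length over 500 bp was seen in 44.6% (Wilson 95% interval 43.5 to 45.7%), against 22.6% (21.2 to 24.1%). RANKL-higher intergenic regions beyond 50 kb gave 38.6%, and RANKL-higher intron regions over 5 kb from a start gave 45.9%. Both intervals take regions as independent, which neighbours in 1 stretch are not, and they cover no difference between libraries.

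The longest stretch was 38.05 kb at chr17:36351991-36390041, with 10 regions and 1217 RANKL tags against 439.2, between the non-classical MHC gene H2-T3 and Rpp21. Another MHC stretch, chr17:36711066-36745679, held 12 regions beside H2-M9 and H2-M11. A stretch upstream of Pax2, chr19:44792415-44829049, held 9 regions with 2115 tags against 877.7. The stretch with most regions, 13, lay at chr11:44288899-44326231 beside Rnf145 and Ublcp1. A stretch at chr11:117290637-117327657 beside Gm11733 and Gm8624 had 9 regions and 1673 tags.

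On a larger scale the regions were uneven over the chromosomes. Chromosome 11 carried 5.43 regions per Mb and chromosome 19 carried 4.91, while chromosome 16 carried 1.36. Per 100 listed genes, chromosomes 11 and 19 were not the highest, at 36.0 and 37.8. Chromosome 15 was highest by that measure at 42.5, and chromosome 16 was lowest at 17.7. WENRC-higher counterparts spanned a narrower range, 0.946 to 1.73 per Mb. Of 824 windows of 2 Mb with any region, the median held 6. The fullest, from 44 to 46 Mb on chromosome 19, held 90 regions with 7883 RANKL tags over 117 kb, near Lbx1, Pax2, Tlx1 and Kazald1 among 13 nearest genes. The 108 windows with at least 20 regions held 43.2% of all the regions.

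Repeats lay under 33.4% of the region centres (Wilson 95% interval 32.3 to 34.4%). The share was 39.6% (37.9 to 41.2%) for WENRC-higher intergenic centres at the same distances and 27.8% (26.6 to 29.1%) for RANKL-higher ones beyond 50 kb. LTR elements, remnants of retroviruses, accounted for 11.3%, SINEs for 9.71% and LINEs for 6.96%. LINEs were at 11.3% in the WENRC-higher counterparts. CpG islands held the centre of 55 regions (0.716%) and of 2 WENRC-higher ones (0.0613%). These intervals treat regions as independent, which neighbours in 1 stretch are not.

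The RANKL-higher and WENRC-higher lists take opposite directions of 1 tag ratio, so little overlap between them follows from how they were made, and 7 of the 7684 regions shared at least 1 bp with a WENRC-higher region. The median distance to the nearest WENRC-higher region was 52.6 kb, and 626 regions (8.15%) had one within 5 kb. The nearest other RANKL-higher region of any annotation was a median of 3.18 kb away.

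The regions had 3286 nearest genes. A single region fell to 1605 of them (48.8%), and 253 genes had 6 or more, which together accounted for 25.7% of the regions. A RANKL-higher region also lay within 5 kb of the TSS at 1529 of the genes (46.5%). That share was 37.7% among genes with 1 region and 68.4% among genes with 6 or more. WENRC-higher intergenic regions at the same distances had 843 of these genes as nearest genes too, which is 25.7% of this list and 36.2% of theirs.

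Developmental transcription factors and signalling ligands were nearest genes in larger shares than genes at large. Of 23354 autosomal genes in the GRO-seq table, 13.8% were a nearest gene. Among 144 developmental homeobox factors, which pattern the embryo, 87 were (60.4%), with 388 regions. The counts were 22 of 41 forkhead factors (53.7%), 9 of 15 T-box factors (60%), 24 of 56 developmental bHLH factors (42.9%), 20 of 34 Wnt ligands and antagonists (58.8%) and 18 of 42 BMP, Hedgehog and FGF ligands (42.9%). Potassium channels, which are not developmental regulators, also stood above the background with 28 of 91 (30.8%). Solute carriers (13.4%) and Zfp zinc finger genes (13.4%) stood at the background. Olfactory and vomeronasal receptors stood below it, with 58 of 1446 (4.01%). Genes of the Hox clusters, which are packed closely, came to 6 of 39 (15.4%). How much intergenic DNA surrounds each gene was not measured, and its part in these shares was not tested.

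The WENRC-higher counterparts, with 9.73% of all genes as nearest, took 29.2% of the homeobox factors, 31.7% of the forkhead factors, 46.7% of the T-box factors, 23.1% of the potassium channels and 23.5% of the Wnt genes. Sox factors had 7 of 18 (38.9%) on each list. Keratins had 22 of 104 (21.2%) here and 3.85% there. None of 12 autosomal PRC2 subunit genes and none of 10 Paneth-cell genes was a nearest gene.

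**Figure D2:**
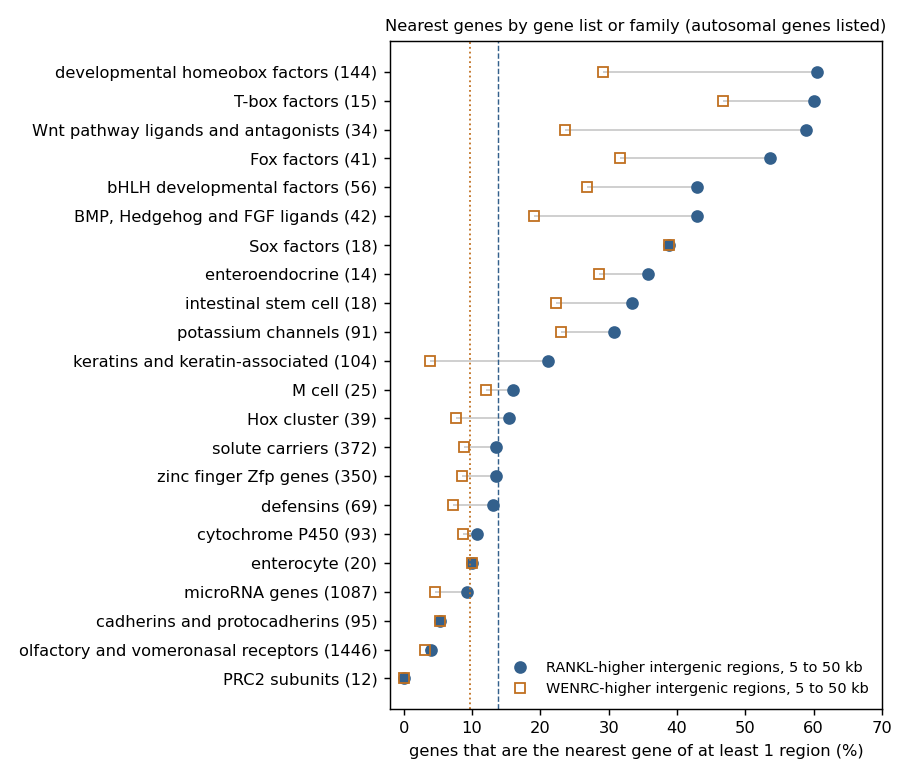
Share of each gene list or family (number of autosomal genes in brackets, lists of 12 or more) that was the nearest gene of a RANKL-higher (filled circles) or WENRC-higher (open squares) intergenic region 5 to 50 kb away. The dashed and dotted lines give the shares over all autosomal genes, 13.8% and 9.73%. Homeobox, T-box, Wnt and forkhead genes lie farthest to the right.

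Among single genes, Foxo6, a forkhead factor, had the most regions, 18, with 933 RANKL tags against 348.3. Gm20052 followed with 17, the muscle precursor factor Lbx1 with 15, 2900041M22Rik with 14, and Mylip (a ubiquitin ligase for lipoprotein receptors), Laptm5 and Six2, a kidney progenitor factor, with 13 each. Foxl1, Rgs4 and Gm11544 had 12. All 10 also had a RANKL-higher region within 5 kb of the start. The regions near Six2, whose CpG-dense promoter is printed above, covered 8.71 kb with 450 tags against 172.8. The 11 regions near Gsx1, a brain homeobox factor, held 438 against 176.4, and Gsx1 had none at its start.

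Most of these genes were too weakly transcribed to test. GRO-seq values are the authors' normalized log2 values summed over whole genes, and a gene was tested where at least 2 libraries reached the log2 of 10. Six2 was listed between -1.98 and -1.96 and Gsx1 between -0.86 and -0.77 in all 6 libraries. Foxl1 has the same 6 values as Six2, so these lie at the bottom of the deposited scale, and no likeness or difference between cultures can be read from them. Only Foxo6 and Mylip of the 10 passed. Foxo6 stood at 5.54 and 5.54 (RANKL), 5.07 and 5.23 (WENRC) and 5.17 and 5.50 (ENRI), and it did not pass the test against either culture (limma adjusted p = 0.269 and 0.520). Mylip stood at 6.03 and 5.81 (RANKL), 5.97 and 6.27 (WENRC) and 6.85 and 7.33 (ENRI). Its values overlapped those of WENRC, and it was lower than in ENRI by 1.17 on the log2 scale (SE 0.24, limma adjusted p = 0.0235). Over all genes of the regions that are in the GRO-seq table, 1943 of 3224 (60.3%) passed the filter, against 68.8% of autosomal genes. The share was 64.6% for genes with 1 region and 42.1% for genes with 6 or more.

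The comparison of transcription asked whether genes near gained H3K27me3 were transcribed less in M-cell culture. Most were not called either way. Between RANKL and WENRC, 94 of the 1943 tested nearest genes were lower (4.84%) and 150 were higher (7.72%), by limma with an adjusted p under 0.05 over all 16563 tested genes. Over all tested genes 3.62% were lower and 8.53% higher. The median change was -0.03 on the log2 scale, and -0.01 over all tested genes. In all 244 called genes the libraries of the 2 cultures did not overlap, which held for all 2012 called genes of the table too and says nothing particular about these. In bulk cultures, fewer cells of a type and less RNA per cell cannot be told apart.

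The genes split by whether the mark was also higher at their own start. Of the 824 tested genes with a RANKL-higher region within 5 kb of the TSS as well, 59 were lower (7.16%) and 54 higher (6.55%), with a median of -0.06. Of the 1119 without one, 35 were lower (3.13%) and 96 higher (8.58%), with a median of -0.02. The order of these medians turned round under quantile normalization (-0.083 with and -0.087 without), without RANKL replicate 2 (-0.028 and -0.034) and without WENRC replicate 2 (0.029 and -0.046). A further 1891 tested genes had a RANKL-higher region at the start and none of these regions. Of them 6.40% were lower and 4.76% higher, with a median of -0.12. The share of lower calls was thus above the background of 3.62% in both sets marked at the start and below it in genes with distal regions alone. With only the 4 RANKL and WENRC libraries in the fit, the lower shares were 17.96% with and 15.5% without a region at the start, and 13.2% over all tested genes, so genes with distal regions alone were then above the background. The difference between the sets was not tested.

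**Figure D3:**
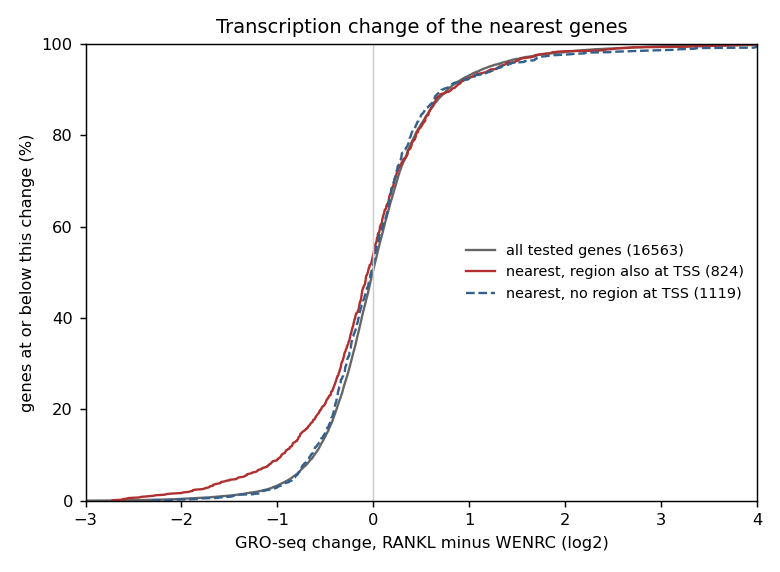
Cumulative share of genes (y axis) by their GRO-seq change between RANKL and WENRC (x axis, log2) for all tested genes, the 824 nearest genes with a RANKL-higher region also within 5 kb of the TSS, and the 1119 without one. The curve of genes marked at the TSS lies to the left between about -2 and -0.5, and the other 2 curves run close together.

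The shares were also read by number of regions and by distance, with no test of the differences. Genes with 1 region were lower in 4.60% and higher in 6.56%, those with 4 or 5 regions in 7.14% and 12.6%, and those with 6 or more in 5.77% and 11.5%. Genes with a region 5 to 10 kb away were lower in 5.82%, and those with one 20 to 50 kb away in 5.01%. Genes with a region upstream had a median change of -0.0035 and those with one downstream -0.15. For genes nearest to WENRC-higher intergenic regions, 3.66% were lower and 11.4% higher.

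The counts rested on the spread of few libraries. Without either 1 of the 2 RANKL libraries limma called 0 nearest genes against WENRC, with 330 and 310 at an unadjusted p under 0.05. Without WENRC replicate 1 or 2 there were 36 and 32 calls, and with the 4 RANKL and WENRC libraries alone 321 lower and 305 higher. Calls over all tested genes fell in those leave-out fits too. Recentring each library on its upper quartile moved the median of all tested genes to -0.12. It gave 150 lower (7.72%) and 132 higher (6.79%) nearest genes, so that 46.8% of their calls were higher in place of 61.5%. All tested genes moved the same way, from 70.2% to 53.3% of calls higher, with 6.59% of genes lower and 7.52% higher. By the authors' deposited table, the tested nearest genes included 279 lower (14.4%, all tested genes 11.1%) and 275 higher ones (14.2%, all tested genes 16.7%).

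Against ENRI, 209 of the nearest genes were lower (10.8%) and 191 higher (9.83%), with 10.5% and 10.4% over all tested genes. This comparison uses the same RANKL libraries, and H3K27me3 of ENRI cultures is not analysed here. Genes with a downstream region were lower in 15.2% and higher in 6.28%, and those with an upstream region in 9.59% and 10.7%.

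Of the 10 largest falls against WENRC, 8 were also called lower than ENRI, against 10.8% of tested nearest genes. Both comparisons use the same RANKL libraries, so this count is no independent check. A RANKL-higher region lay at the start of 8 of the 10 as well. Of the 1943 tested nearest genes 42.4% had a region at the start and 57.6% had none. Pcsk6, a proprotein convertase, stood at 7.23 and 7.23 (RANKL), 10.08 and 9.81 (WENRC) and 10.38 and 8.88 (ENRI). It was lower than in WENRC by 2.72 (SE 0.46, limma adjusted p = 0.0179), and 1 region lay 8.56 kb upstream of its start, with 23 tags against 8.1. Pdgfa, a growth factor ligand, was at 8.23 and 8.10 in RANKL, against 10.45 and 10.41 in WENRC and 10.03 and 10.72 in ENRI. Its fall by 2.27 (SE 0.23, limma adjusted p = 0.00522) went with 7 regions holding 470 tags against 146.7, and with 373 against 89.1 in a 5955 bp region at the start. The largest distal one, chr5:139445199-139449772, had 217 against 44.1, a fold of 4.92.

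Syt14 fell by 2.36 and Jdp2, a repressor of AP-1 targets, by 2.29, with limma adjusted p = 0.0146 and 0.0234. Hsd17b13, a lipid droplet enzyme, fell by 2.10 without a region at its start. Zc3h12c, Pik3c2g and Slc35f2 completed the 10 with falls of 2.17, 2.04 and 1.93. Jdp2 and Zc3h12c did not pass against ENRI. Zc3h12c overlaps the listed gene Mir6244, and reads of the pair cannot be assigned to one of them here.

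Ifnlr1 and Il22ra1 are neighbours on chromosome 4 and encode the specific receptor chains for interferon lambda and interleukin 22, cytokines that act on gut epithelium. Ifnlr1 stood at 6.06 and 5.86 (RANKL), 8.50 and 8.63 (WENRC) and 9.12 and 9.41 (ENRI). Il22ra1 stood at 7.26 and 7.12 (RANKL), 9.53 and 9.06 (WENRC) and 10.73 and 11.47 (ENRI). The RANKL libraries were lowest for both genes, with no overlap. Against WENRC, Ifnlr1 fell by 2.61 (SE 0.18, limma adjusted p = 0.00181) and Il22ra1 by 2.11 (SE 0.28, limma adjusted p = 0.00970). Against ENRI, the falls were 3.31 (limma adjusted p = 0.00104) and 3.91 (limma adjusted p = 0.00204).

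The distal regions of this pair held far fewer tags than the regions at the genes. Ifnlr1 had distal regions 19.4 and 9.28 kb upstream, outside the pair, at chr4:135222715-135223215 (24 tags against 7.2) and chr4:135232838-135233338 (18 against 4.5). The one over its start, chr4:135239604-135246380, held 447 against 47.7, a fold of 9.37. Il22ra1 had 3 distal regions, which lay between the 2 genes, with 73 tags against 16.2 together. Beside its start lay 139 against 18.9 and 174 against 26.1, with folds of 7.35 and 6.66. From chr4:135200249 to 135323411 there were 21 RANKL-higher regions, 7 of them intergenic and 5 to 50 kb from a start, and 0 WENRC-higher ones. Summed over the 41.8 kb these 21 covered, RANKL had 2234 tags and WENRC 360, a ratio of 6.21. This interval and the sum were chosen after the values had been seen.

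**Figure D4:**
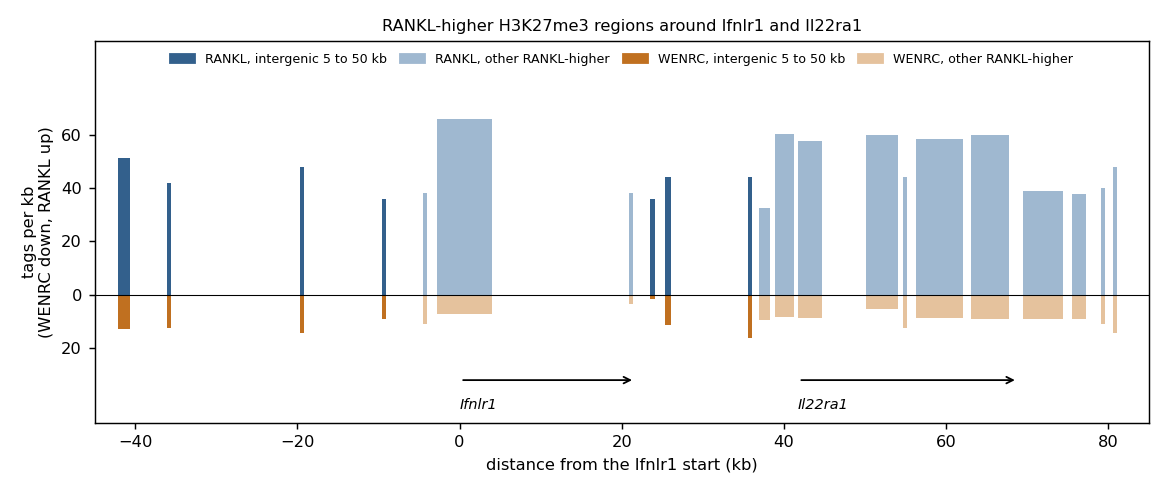
Tags per kb in the RANKL-higher regions around Ifnlr1 and Il22ra1, by distance from the Ifnlr1 start (x axis, kb). RANKL values rise above the zero line and WENRC values, scaled to the RANKL depth, hang below it. Dark bars are intergenic regions 5 to 50 kb from a start, pale bars are other RANKL-higher regions, and arrows show the genes. Distal regions held 35.9 to 51.3 RANKL tags per kb, and the region over the Ifnlr1 start held 66.0.

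The largest rises lay near regions too, mostly without a region at the start (9 of 10, against the 57.6% of tested nearest genes). Adgrd1, an adhesion G protein receptor, stood at 13.19 and 13.23 (RANKL), 7.45 and 6.88 (WENRC) and 6.92 and 7.40 (ENRI). It was higher than in WENRC by 6.05 (SE 0.25, limma adjusted p = 0.00123), and its 1 region lay 35.5 kb upstream with 24 tags against 9.0. Col13a1, a membrane collagen, rose by 5.50 and had 5 regions and marked DNA at its start as well. Trabd2b, an inhibitor of Wnt ligands, rose by 5.21. Csgalnact1, Mylk and Pde1c rose by 4.65, 3.99 and 3.98. The first 2 of these overlap another listed gene. Guca2b, the gut peptide uroguanylin, rose by 4.03 against WENRC and was not called against ENRI (0.09, limma adjusted p = 0.852).

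Of 25 M-cell genes, 4 were a nearest gene (16%), a share near the 13.8% of all autosomal genes. None of these 4 had a RANKL-higher region within 5 kb of its start, and all 4 were higher in RANKL against both other cultures. This list describes the cultures, and over it 19 of 25 genes were higher than in WENRC and 22 than in ENRI. Sox8 stood at 6.94 and 6.97 (RANKL), 2.56 and 3.23 (WENRC) and 2.57 and 2.83 (ENRI), a rise of 4.06 against WENRC (SE 0.26, limma adjusted p = 0.00175). Downstream of its start at 10.5 to 16.1 kb lay 3 regions: chr17:25691178-25691939 with 44 tags against 18.9, chr17:25694538-25695947 with 78 against 31.5, and chr17:25696699-25697569 with 47 against 14.4. Nearer to the start, 6.43 kb downstream, chr17:25700953-25701453 was WENRC-higher, with 9 RANKL tags against 23.4. H3K27me3 beyond Sox8 was thus higher in RANKL in these 3 regions and lower in 1.

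Ncf4, a subunit of the phagocyte NADPH oxidase, stood at 8.39 and 8.36 (RANKL), 2.60 and 3.47 (WENRC) and 2.49 and 2.88 (ENRI). It rose by 5.34 (SE 0.32, limma adjusted p = 0.00144), and 4 regions 12.7 to 19.2 kb upstream held 246 tags against 72.0. Atoh8, a bHLH factor, stood at 7.04 and 6.71 (RANKL), 5.40 and 5.62 (WENRC) and 4.38 and 4.92 (ENRI), a rise of 1.37 (SE 0.26, limma adjusted p = 0.0254). Its 4 regions, 24.5 to 31.4 kb upstream, held 167 against 72.0. Atoh8 was also nearest to 3 WENRC-higher regions, with 18 RANKL tags against 40.5 at 30.5 kb upstream, 4 against 20.7 at 34.0 kb upstream, and 13 against 34.2 at 47.0 kb downstream. Over the 25 M-cell genes, 3 (12%) were nearest to WENRC-higher regions at these distances, Sox8, Atoh8 and Nfkb2, against 9.73% of all autosomal genes. Fabp5, a fatty acid binding protein, rose by 1.82 (limma adjusted p = 0.0113) with 1 region of 67 tags against 27.9 in an ERVK element. In each of the 4 genes the RANKL libraries lay above all the others.

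**Figure D5:**
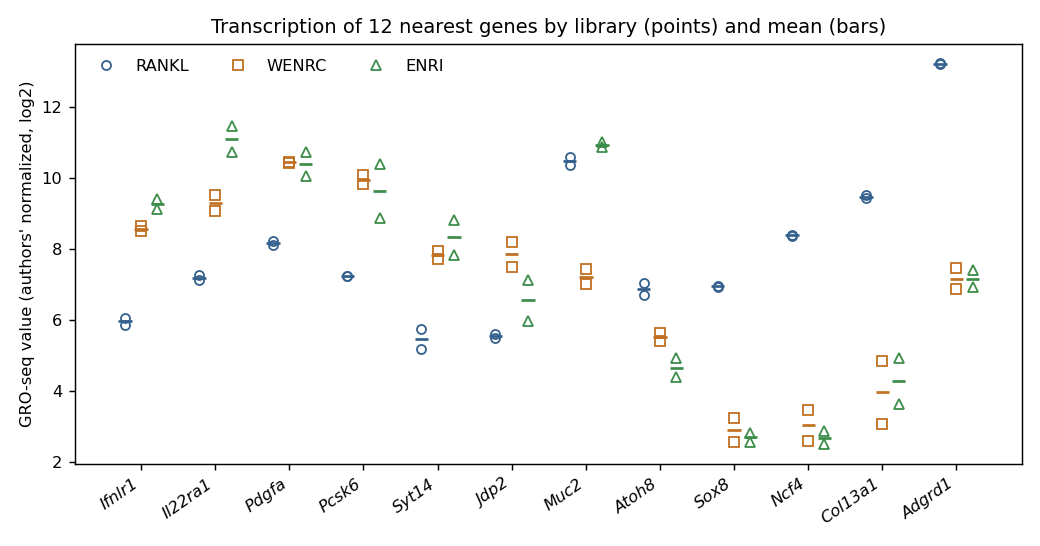
GRO-seq values (authors' normalized log2, y axis) of 12 nearest genes in the 2 libraries of each culture (points) with their mean (bars). Ifnlr1, Il22ra1, Pdgfa, Pcsk6, Syt14 and Jdp2 are lowest in RANKL. Muc2 is higher than in WENRC only, and Atoh8, Sox8, Ncf4, Col13a1 and Adgrd1 are highest in RANKL.

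Markers of other epithelial cells were among the nearest genes too. Of 4 goblet-cell genes, 3 rose against WENRC. Over the whole goblet list, 4 of 8 tested genes rose. Against ENRI limma called 0 of the 4 nearest genes, with 1 at an unadjusted p under 0.05 and 1 called in the authors' deposited table. Muc2, the main mucin, stood at 10.58 and 10.37 (RANKL), 7.44 and 7.0 (WENRC) and 10.86 and 11.002 (ENRI). It rose by 3.25 (SE 0.19, limma adjusted p = 0.00144) while H3K27me3 at its start and in 3 distal regions was higher, with 89 distal tags against 34.2. Zg16 rose by 3.36 and Clca1 by 2.46. The remaining one, Atoh1, the factor that sets secretory fate, changed by 0.21 with limma adjusted p = 0.556.

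Both enterocyte genes near regions rose against WENRC, the apolipoprotein Apoa4 by 3.97 and the peptide transporter Slc15a1 by 1.37. Over the whole list of 20, 7 were higher and 2 lower than in WENRC, and 0 higher and 13 lower than in ENRI. Against ENRI, Slc15a1 was lower by 2.97 and Apoa4 did not pass (-1.05, limma adjusted p = 0.139). Of 6 stem-cell genes, Tnfrsf19 rose by 1.69 and the RNA-binding protein gene Msi1 by 1.19, and the other 4 were not called. Olfm4 was at 2.0 (limma adjusted p = 0.112) and Smoc2, which overlaps another listed gene, at -1.07 (limma adjusted p = 0.112). Those not called may still have changed. Of the 6, 4 had an unadjusted p under 0.05 and 5 were called in the authors' deposited table. Olfm4 stood at 10.90 and 11.05 (RANKL), 8.83 and 9.12 (WENRC) and 5.14 and 7.41 (ENRI). Over all 18 stem-cell genes 2 were higher and 2 lower than in WENRC, with a median of -0.15, and the authors' deposited table called 12. Of the 6, 4 were higher than in ENRI, and of the 18, 8 were. A region of 5.15 kb upstream of Msi1, chr5:115843666-115848819, held 284 tags against 99.9. Of 4 tested enteroendocrine genes, 1 was called, Chga, which rose by 0.89. Ptgs1, a prostaglandin synthesis enzyme on the tuft-cell list, was not called, with a log2 difference of 0.29 from WENRC (limma adjusted p = 0.323). Of fibroblast and smooth muscle genes 3 of 10 were nearest genes and none passed the filter on low values. Of blood and endothelial genes 3 of 10 were nearest genes and only Adgre1 was tested (-0.31, limma adjusted p = 0.771). Over those 2 whole lists, limma called 0 of 7 tested genes against WENRC, with 2 at an unadjusted p under 0.05 and 1 called in the authors' deposited table. The summed log2 level ran from 26.2 to 27.4 and from 30.2 to 34.2 over the 6 libraries.

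Of 32 tested homeobox factors, 2 were lower and 1 higher, a share near the 12.1% of all tested genes that were called in either direction. Irx5 was at 3.98 and 4.14 in RANKL, against 4.93 and 5.26 in WENRC, and fell by 1.03 (SE 0.24, limma adjusted p = 0.0445). Its 7 regions, all downstream, held 756 tags against 312.4. Lhx3, a pituitary and motor neuron factor, fell by 1.16 (SE 0.17, limma adjusted p = 0.0127) with 4 regions. Six4 rose by 1.33 (SE 0.22, limma adjusted p = 0.0162) with 2 regions and marked DNA at its start. Of 6 tested forkhead factors limma called 0, with 3 at an unadjusted p under 0.05 and 2 called in the authors' deposited table. Tbx3 was the 1 T-box factor of 4 tested that was called, higher by 1.01. Of 11 Wnt genes only Wnt6 was called, higher by 0.86, and of 8 BMP, Hedgehog and FGF ligands only Bmp6, higher by 1.57, a gene that overlaps 2 other listed genes. Of 43 Zfp genes, Zfp503 and Zfp395 were lower, by 1.75 and 0.84.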

How the data were processed

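The authors called regions with HOMER on the pooled RANKL against the WENRC H3K27me3 library and annotated them on mm9, per the file headers. RANKL tags are deposited as raw counts, WENRC tags as a signal scaled by the authors to RANKL depth. The fold (a ratio), the p-value and the peak score are the authors' own, and the score was not used. GRO-seq reads were summed over whole RefSeq genes with HOMER, per the file headers, and the deposited values are on a log2 scale whose transform is not given in the sources used here. Bowtie2 2.3.4.1 and DESeq2 are named in the submitters' processing notes, without a role.

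From the files, regions were counted, joined at gaps of up to 5 kb and matched to GRO-seq rows by RefSeq accession, then gene identifier, then symbol. Of 3286 nearest genes 3224 matched. Genes with at least 2 of 6 libraries at the log2 of 10 or more were fitted with limma 3.58.1 (R 4.3.3, variance trend, 1 mean per culture, two-sided, Benjamini-Hochberg over 16563 genes, called at 0.05), after a check on simulated data. A gene on the deposited scale is not length-corrected, so levels are not compared between genes. Genes named were the 10 with most regions, the 10 largest falls and rises among called genes with non-overlapping libraries, called genes of 12 lists and the best represented members of 16 symbol families. Regions named were the 10 with most tags, the 5 with highest fold above the floor and the 5 longest stretches. Gsx1 and Cbx8 and other genes of those regions, and the promoters printed, were added after values were seen. The members and lists were chosen with earlier results of these data known. A comparison of promoter CpG over gene sets is void, because 72.2% of nearest genes matched a promoter. Region sequences are not analysed here, and some genes that the rule names are not reported here.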

Additional observations from a re-analysis of the deposited data

How the results depend on the processing

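Stricter lists changed the regions as their construction implies. An authors' fold of at least 4 left 1034 regions with 874 nearest genes, 28.5% over 500 bp, 36.2% centred in a repeat and 18.1% of homeobox factors as nearest genes. An authors' p of at most 1e-06 left 3956 regions with 2171 genes, 69.97% over 500 bp and 47.2% of homeobox factors. The full list had 3286 nearest genes and 60.4% of homeobox factors, and a shorter list reaches fewer genes. The share of all autosomal genes was not worked out for the shorter lists. No loss or gain of homeobox factors relative to other genes can therefore be read from them. At least 20 RANKL tags gave 49.0% over 500 bp. An upper bound of 20 kb left 3963 regions, 73.6% upstream and 35.1% in repeats, and joining gave 4896. Requiring 50% overlap with a WENRC-higher region left 0.

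For RANKL against WENRC, 305 nearest genes were higher and 321 lower with only the 4 libraries of those cultures, and 275 and 279 in the authors' deposited table. For regions of fold 4 or more the counts were 38 and 26 of 491 tested genes (7.74% and 5.30%). Without genes marked at the TSS they were 96 and 35 of 1119 (8.58% and 3.13%). Regions within 20 kb gave 96 and 63 of 1285 (7.47% and 4.90%). The main fit gave 7.72% and 4.84% of 1943 nearest genes, and 8.53% and 3.62% of all tested genes. Upper-quartile recentring gave 150 lower. Leaving out 1 library gave 0 to 304 higher and 0 to 320 lower: 0 and 0 without RANKL replicate 1 or 2, 31 and 5 without WENRC replicate 1, 28 and 4 without WENRC replicate 2, 304 and 315 without ENRI replicate 1, 304 and 320 without ENRI replicate 2. The median change was -0.087 under quantile normalization, -0.1484 under recentring, -0.0868 in the authors' deposited table and -0.0752 to -0.0247 when 1 library was left out.

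For RANKL against ENRI the counts were 122 and 136 with 4 libraries, 123 and 134 within 20 kb, 47 and 58 at fold 4, and 120 and 122 without genes marked at the TSS. Leaving out 1 library gave 9 to 419 higher and 7 to 350 lower: 11 and 11 without RANKL replicate 1, 9 and 7 without RANKL replicate 2, 419 and 350 without ENRI replicate 1, 321 lower without ENRI replicate 2, 123 and 135 without WENRC replicate 1, 120 and 136 without WENRC replicate 2. The median was -0.0013 under quantile normalization, -0.1055 in the authors' deposited table, 0.0212 at fold 4, 0.0117 without genes marked at the TSS, and -0.0371 to 0.0179 when 1 library was left out. The cause of these moves was not tested, beyond fewer regions, genes or libraries.

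With a replicate block RANKL minus WENRC gave 129 higher and 66 lower nearest genes, and RANKL minus ENRI 158 and 174. RANKL libraries share only a number with the others: same-numbered deviations correlated at -0.323 with WENRC and -0.205 with ENRI. The crossed pairing, added after seeing the data, gave 149 and 86, and 197 and 207. For single named genes, no called change reversed under any setting run. Of 80 called changes, 0 to 7 fell back past the threshold in each setting that kept both libraries of each compared culture. Most of the losses came without a RANKL or WENRC library, and those fits leave no replicate in that culture. Calls of named genes were thus sensitive to leaving out a library of these cultures.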
